A study of Rattus norvegicus with 2 samples.

Results

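A group of 7 nuclear genes, Tspo, Cideb, Plac8, Cpxm1, Rgs1, Grcc10 and H2aj, were followed cell by cell in microglia from the hippocampus of rat fetuses. They are 7 of the 32623 genes in the count matrices, and all 7 were found by symbol. Each was picked because its level in microglia-like cells was high in the dexamethasone library relative to the control library. That difference is therefore given below as a description, and nothing is read from it. A dexamethasone library was made from embryos exposed to it in the womb, and a control library from embryos without it. Both were made at gestational day 20 from male embryos, with 7 embryos pooled per library. Hippocampal tissue was broken up mechanically, microglia were taken by flow cytometry, and single cells were captured in droplets, where each RNA molecule receives a unique molecular identifier (UMI). The dose and days of dexamethasone, the rat strain and the sorting markers are not in the labels. The study title concerns maturation of microglia after glucocorticoid exposure before birth. Each group is a single library, so no test was made, and the treatment, the pool and the library cannot be told apart.

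Dexamethasone is a synthetic glucocorticoid that activates the glucocorticoid receptor, a transcription factor that enters the nucleus and binds DNA as a dimer, at paired short motifs. Microglia are the resident macrophages of the brain and settle there before birth. The 7 genes belong to no single pathway. Tspo encodes the translocator protein of the outer mitochondrial membrane, a cholesterol and porphyrin binding protein that is widely imaged as a marker of microglial activation. Cideb encodes a protein of lipid droplets and the endoplasmic reticulum that acts in lipoprotein assembly in liver. Plac8 encodes a small cysteine-rich protein abundant in myeloid cells. Cpxm1 encodes a secreted member of the M14 carboxypeptidase family. Rgs1 encodes a regulator of G-protein signalling that shortens responses to chemokine receptors in leukocytes. H2aj encodes a variant of histone H2A. Grcc10 lies in a gene-rich cluster and encodes a small protein whose human counterpart is C12orf57.

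Promoters are shown because dexamethasone acts through a DNA-binding receptor. RefSeq promoter sequences of build GRCr8, from 250 bases before to 50 bases after the annotated start, were matched for 6 of the 7 genes, the exception being Tspo. They were searched on both strands for TGTTCT, the hexamer bound by a single receptor. They were also searched for its pair, in which the reverse complement of the hexamer stands 3 bases before it, with up to 2 mismatches in the 12 fixed letters. A paired match can overlap a hexamer match. None of the 6 promoters held either, while 20.7% of all 33469 promoters held the hexamer and 1.87% the pair. The absence says only that these letters are not in this window. The stretches below are the 250 bases before the start of the gene with the highest ratio (Cideb), the gene with the most uneven distribution over cells (Plac8) and the gene with the closest window (Rgs1). Capitals mark the 12 compared letters of the window nearest to the pair.
Cideb promoter, chr15:33226408-33226657, minus strand: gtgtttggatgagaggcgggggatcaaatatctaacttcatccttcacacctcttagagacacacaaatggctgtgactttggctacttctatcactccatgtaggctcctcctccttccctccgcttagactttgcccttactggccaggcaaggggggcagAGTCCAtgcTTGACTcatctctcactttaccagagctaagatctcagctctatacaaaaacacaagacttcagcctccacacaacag
Plac8 promoter, chr14:9356700-9356949, plus strand: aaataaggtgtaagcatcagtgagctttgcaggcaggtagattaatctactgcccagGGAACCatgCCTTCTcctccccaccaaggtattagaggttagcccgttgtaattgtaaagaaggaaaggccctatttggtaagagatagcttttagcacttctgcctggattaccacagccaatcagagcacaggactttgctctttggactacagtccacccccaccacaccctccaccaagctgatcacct
Rgs1 promoter, chr13:58573188-58573437, minus strand: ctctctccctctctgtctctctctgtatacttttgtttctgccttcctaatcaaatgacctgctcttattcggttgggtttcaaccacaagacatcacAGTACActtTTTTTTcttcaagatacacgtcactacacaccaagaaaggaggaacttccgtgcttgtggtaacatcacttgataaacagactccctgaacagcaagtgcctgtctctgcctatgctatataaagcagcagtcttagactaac
The nearest window had 5 mismatches in Cideb, 4 in Plac8 and 3 in Rgs1, and 4 in Grcc10 and 5 in both Cpxm1 and H2aj. Among all promoters, 12.4% had a window with 3 or fewer mismatches, 52.6% with 4 or fewer and 92.7% with 5 or fewer.

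Total depth was 42611920 UMIs over 4328 barcodes in dexamethasone, against 69940778 UMIs over 8342 barcodes in control. Filters kept 4198 dexamethasone and 8044 control cells. The libraries shared 5 barcodes. Clustering without the 7 genes gave 6 microglia-like clusters with 3105 dexamethasone cells (74.0% of the library) and 6131 control cells (76.2%), at a median of 9130 and 7927 UMIs per cell. Their markers were present: Csf1r, the receptor that microglia need to survive, stood at 1713 CPM in dexamethasone and 1606 CPM in control cells, and P2ry12, a purinergic receptor of microglia, at 176 and 216 CPM. CPM are counts scaled to a common total of UMIs in each class and library. Of 14 measured microglia markers, 2 were higher and 12 lower in the dexamethasone cells. Mitochondrially encoded genes made up 3.13% of UMIs in dexamethasone and 6.0% in control microglia-like cells, and ribosomal protein genes 16.3% and 14.4%. Of 27 measured genes of cell dissociation and early activation, 24 were higher in dexamethasone, among them Dusp1, a phosphatase induced by glucocorticoids and by stress, at 27.8 against 11 CPM. Past a log2 ratio of 0.5 were 8 of these 27 genes, and 3.59% of all 10531 genes measured. Summed neuron markers in microglia-like cells stood at 5.36 CPM in dexamethasone and 25.1 CPM in control, and summed erythroid markers at 196 and 380 CPM. The part of these shifts in the values below was not tested except where a matched value is given.

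In microglia-like cells all 7 genes lay past a log2 ratio of 0.5 (1.41-fold), the line used below, as did 3.59% of all 10531 genes measured. They were picked on this contrast. Tspo was the most abundant, at 574 CPM in dexamethasone cells (95% Poisson interval 566 to 583) against 312 CPM in control cells (307 to 317). Plac8 stood at 276 CPM (270.5 to 282) against 140.3 CPM (137 to 143), and Grcc10 at 257 against 129 CPM. H2aj stood at 110.2 CPM in dexamethasone cells, against 52.7 CPM in control cells. The other 3 were scarcer: Cideb stood at 73.6 against 25.2 CPM, Cpxm1 at 62.5 against 33.9 CPM, and Rgs1 at 59.6 against 33.0 CPM. The intervals of the libraries did not overlap for any of them, and these intervals cover counting error only. Picking the genes on this contrast favours that, and the share of all genes whose intervals did not overlap was not counted. Cideb stood apart with a log2 ratio of 1.54 (1.45 to 1.64), a 2.92-fold difference. The other 6 lay between 0.85 for Rgs1 and 1.06 for H2aj. In droplet tag counting a molecule gives 1 UMI whatever its transcript's length, so levels were not divided by length.

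Ranked by ratio among the 2733 nuclear genes with a symbol, at least 100 UMIs and at least 50 CPM in a library, Cideb came at rank 3, H2aj at 7, Grcc10 at 9, Plac8 at 10, Cpxm1 at 11, Tspo at 12 and Rgs1 at 13. At or above rank 13 stood 6 other genes: F13a1, a coagulation factor subunit of macrophages, at 3.05, the ribosomal protein genes Rps19l2 at 1.75, Rpl30 at 1.21 and Rpl37 at 1.13, and Ppial4d at 1.37 and Sumo4 at 1.04. Just outside were Atp5md at 0.85, Fcgr2b at 0.82 and RT1-A2 at 0.81. H2aj belongs to a family of near-identical H2A genes, and how reads shared between copies were assigned is not given in the sources used here, so its counts are uncertain.

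**Figure D1:**
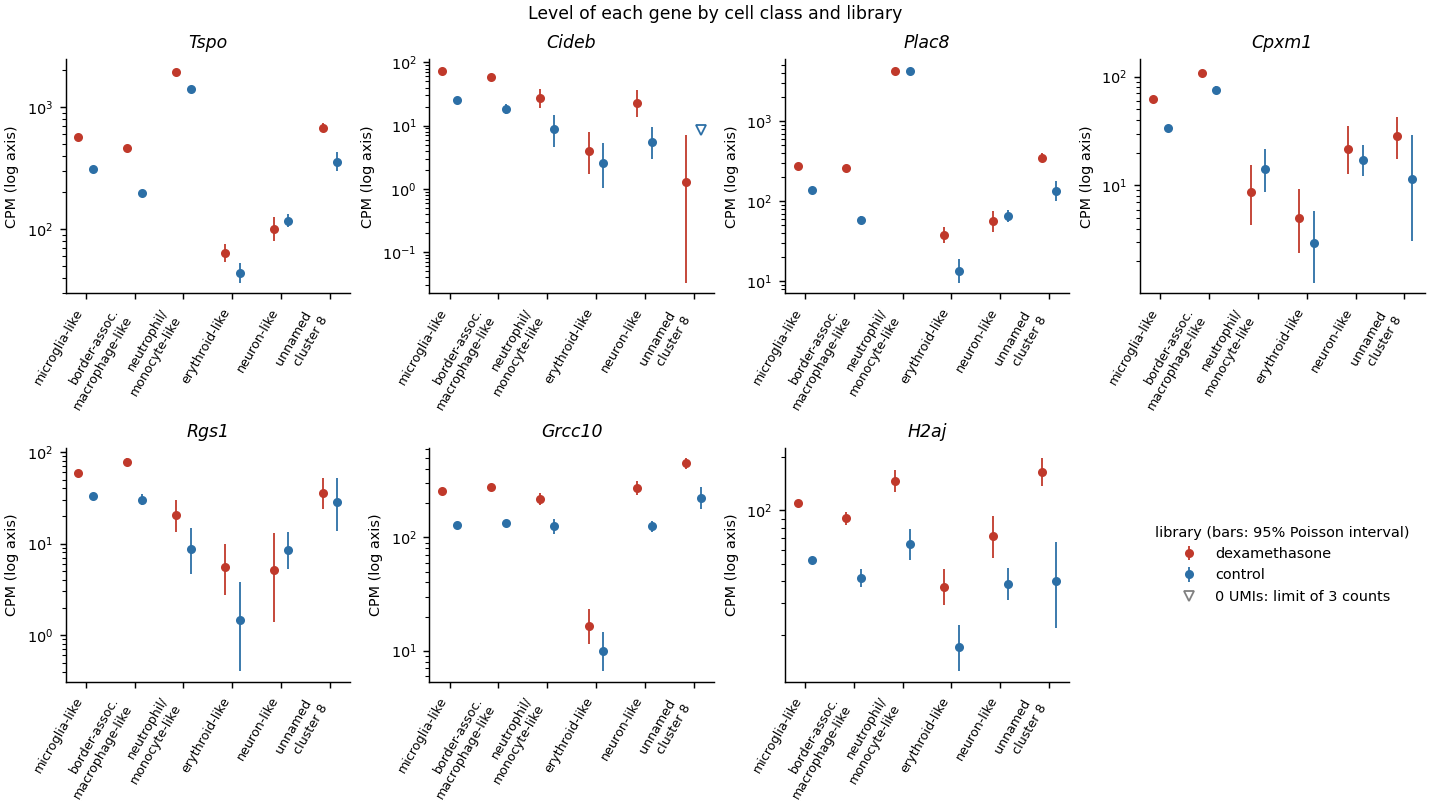
Level of each gene in CPM (log axis) by cell class, with the dexamethasone library in red on the left and the control in blue on the right. Bars are 95% Poisson intervals and open triangles mark 0 UMIs at the limit of 3 counts. In microglia-like and border-associated-macrophage-like cells every gene was higher in dexamethasone, while Plac8 in neutrophil-or-monocyte-like cells stood at 4296 against 4215 CPM.

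The higher level was found in each of the 6 microglia-like clusters of the clustering used here. The clusters were led by microglial genes such as Tmem119 and P2ry12 (cluster 0), by Spp1 and Gpnmb (cluster 1), by Mcm replication genes (cluster 3), by Hist1h2bq, Cdkn3 and Gbp2 (cluster 4), by other histone genes (cluster 5), and by mitotic genes such as Cdc20 and Ccnb1 (cluster 7). For each of the 7 genes the counting interval of the log2 ratio lay above 0 in 6 of 6 clusters. Picking genes for a high ratio in these cells favours this, and the share of all genes that do the same was not counted. Cideb varied least, with log2 ratios of 1.46 to 1.63. Tspo ranged over 0.72 to 1.03, Grcc10 over 0.83 to 1.07, Plac8 over 0.90 to 1.18 and H2aj over 0.97 to 1.24. Rgs1 ranged over 0.71 to 1.10, and Cpxm1 over 0.72 to 1.35, where the highest value came from cluster 7 with 138 dexamethasone and 287 control cells and an interval of 0.74 to 1.97.

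For 4 of the 7 genes the lowest cluster of the dexamethasone library lay above the highest cluster of the control library. Tspo was at least 454 CPM in dexamethasone clusters and at most 426 CPM in control clusters. Cideb was at least 50.9 against at most 33.2 CPM, Grcc10 at least 182 against at most 159 CPM, and H2aj at least 85.9 against at most 75.2 CPM. For these genes the 6 clusters of each library did not overlap. The genes were picked for a high ratio in these same cells, which favours such a gap. Its share over all genes was not counted. Plac8, Cpxm1 and Rgs1 differed more between clusters, and their ranges overlapped: Plac8 ran as low as 127 CPM in dexamethasone cluster 1, against 229 CPM in control cluster 4.

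Whether clusters separated the libraries depended on how they were drawn. With the 7 genes kept, or without mitochondrial and ribosomal protein genes, every microglia-like cluster held more control than dexamethasone cells. The clusters with most dexamethasone cells held 1144 against 2165 control cells in the first case and 1004 against 1497 in the second. A finer resolution and a stricter cell filter did separate them. The 7 genes were left out of the clustering in both of these. At resolution 1.0 one microglia-like cluster held 883 dexamethasone and 114 control cells, and its leading genes included Cideb, Grcc10 and Tspo. Under a stricter cell filter one held 1575 dexamethasone and 109 control cells, and Cideb, Rgs1 and Grcc10 were among its leading genes. Rpl30 and Rps19l2 were among the leading genes of both. Clusters made up mostly of dexamethasone cells largely repeat the contrast on which the 7 genes were picked, so nothing is read from their place there.

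**Figure D2:**
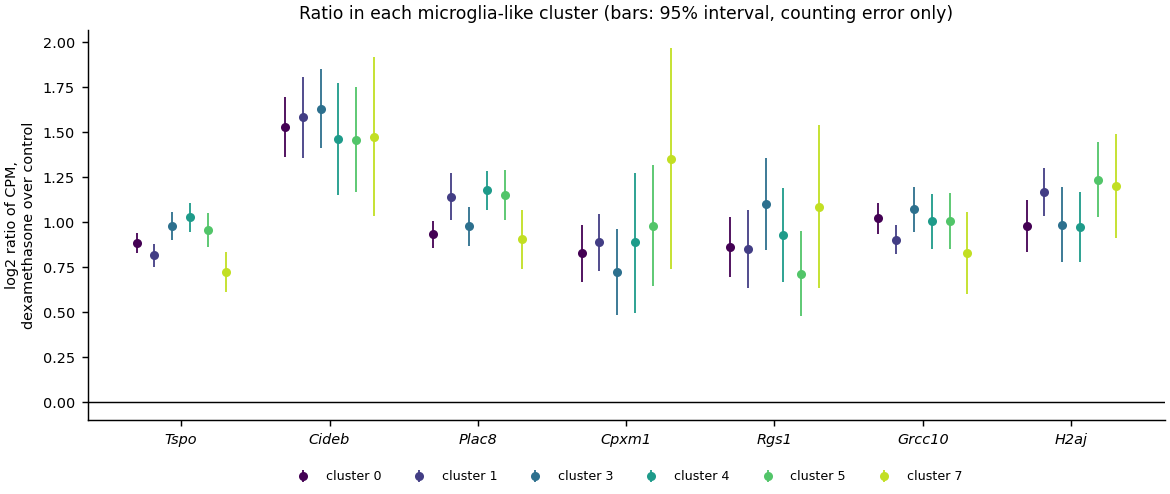
Log2 ratio of CPM, dexamethasone over control, for each gene in the 6 microglia-like clusters. Points are clusters and bars 95% conditional binomial intervals, which cover counting error only. All points and bars lie above 0, and Cideb lies highest in every cluster.

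Depth and RNA composition were then held close. In 10 bins of depth, all 7 genes were higher in the dexamethasone cells in 10 of 10, with log2 ratios of 0.71 to 1.0 for Tspo and 0.90 to 1.98 for Cideb. The interval included 0 in 1 bin for Cpxm1 and in 1 for Rgs1. In 7 bins of the mitochondrial share, chosen after the data were seen, the median of the 7 ratios lay between 0.79 and 0.95. The interval included 0 in 1 bin for Cpxm1 and in 3 for Rgs1. Rgs1 was lowest at a share of 2% to 3%, the bin with most dexamethasone cells, where 970 dexamethasone cells held 55.9 CPM and 156 control cells 51.3 CPM, with a log2 ratio of 0.12 (-0.29 to 0.56). H2aj was the exception to the direction, at -0.058 (-1.52 to 1.08) in cells with a share of 8% or more, where 42 dexamethasone cells held 6 H2aj UMIs and 823 control cells 274. In 7 bins of the ribosomal protein share, 7 of 7 intervals lay above 0 for each gene, and the median ratio was 0.79 to 1.02. The same counts were not made over all genes in any of these bins.

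The distribution over cells was compared after thinning each cell to 4200 UMIs, which left 2944 dexamethasone and 5549 control microglia-like cells and left out 161 and 582 shallower ones. Tspo had a UMI in 84.1% of dexamethasone cells (Clopper-Pearson interval 82.7 to 85.4) and in 67.3% of control cells (66.0 to 68.5). Grcc10 was found in 62.6% against 39.8% of cells, Plac8 in 45.9% against 27.6%, and H2aj in 36.7% against 18.9%. The scarcer Cideb was found in 22.8% against 10.04%, Cpxm1 in 22.4% against 13%, and Rgs1 in 19.5% against 12.3%. The intervals overlapped for none of the 7, which were picked for high ratios in these cells, and the share over all genes was not counted. Without thinning the shares were 93.2% and 81.4% for Tspo, 84.0% and 61.2% for Grcc10, 56.5% and 34.6% for Plac8, 59.1% and 34.4% for H2aj, 38.8% and 18.4% for Cideb, 39.7% and 23.7% for Cpxm1, and 34.4% and 21.6% for Rgs1, dexamethasone first in each pair.

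Free RNA can add to such shares, and the size of that part was not measured. Erythroid-like cells, with a median of 18248 UMIs in dexamethasone and 21479 in control, were thinned to 2000 UMIs. Tspo was then found in 7.84% of 102 dexamethasone and 6.11% of 131 control erythroid-like cells, against 62.5% and 43.4% of microglia-like cells at the same depth. The other 6 genes were found in at most 7.84% of dexamethasone and 5.34% of control erythroid-like cells. Without thinning, erythroid-like cells carried Tspo in 27.5% and 42.0% and H2aj in 39.2% and 29.0% of cells, dexamethasone first. Thinning takes a larger part of the UMIs from these deeper cells, so their thinned shares may understate free RNA. At 2000 UMIs, neuron-like cells, 82 in dexamethasone and 262 in control, carried Tspo in 14.6% and 19.8% and Plac8 in 7.32% and 8.02% of cells. Grcc10 was found in 42.7% and 22.5% of neuron-like cells and in 39.8% and 22.4% of microglia-like cells, so its share does not set microglia apart. At 2000 UMIs, microglia-like cells carried Cideb in 12.3% and 5.84%, Cpxm1 in 11.6% and 6.5%, and Rgs1 in 10.8% and 6.78% of cells. All 3 were above the erythroid-like shares at that depth, which were 0.980% in dexamethasone and 0 of 131 in control. A count of 0 of 131 allows up to 2.29% by the limit of 3 counts, with an upper Clopper-Pearson bound of 2.78%. In neuron-like cells Cideb was found in 3.66% and 1.53%, Rgs1 in 1.22% and 1.15%, and Cpxm1 in 9.76% and 1.91%.

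Tspo had enough UMIs to show the whole distribution. In dexamethasone cells 15.9% had no Tspo UMI, 22.5% had 1, 21.8% had 2, 15.1% had 3 and 24.7% had 4 or more. In control cells 32.7% had none, 32.7% had 1, 18.7% had 2, 9.34% had 3 and 6.56% had 4 or more. The median was 2 UMIs in dexamethasone and 1 in control. For Grcc10 the median was 1 UMI in dexamethasone and 0 in control, and 3.63% against 0.667% of cells had 4 or more.

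To describe whether all cells or a subset carried the difference, the dexamethasone counts of each gene were thinned further, to the control mean, and the distributions were set side by side. If every cell differed by the same factor, they would then coincide. The largest gap between the cumulative distributions was 0.05 percentage points for Cideb, 0.11 for Rgs1, 0.12 for Cpxm1, 0.26 for Grcc10, 0.34 for H2aj and 0.71 for Tspo. The median over 4781 genes with a mean of 0.1 to 5 UMIs was 0.27, and the 90th percentile 0.86. For these 6 genes the matched distributions differed by less than the 90th percentile of the gaps. The gap was larger than that of 5.06% of the genes for Cideb, 19.0% for Rgs1 and 21.5% for Cpxm1. It was larger than that of 49.1% for Grcc10, 59.6% for H2aj and 84.7% for Tspo. Genes of like mean were not compared apart. For genes averaging well under 1 UMI per cell, most cells hold 0 or 1 UMI, and the comparison separates a subset from a common factor only weakly.

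**Figure D3:**
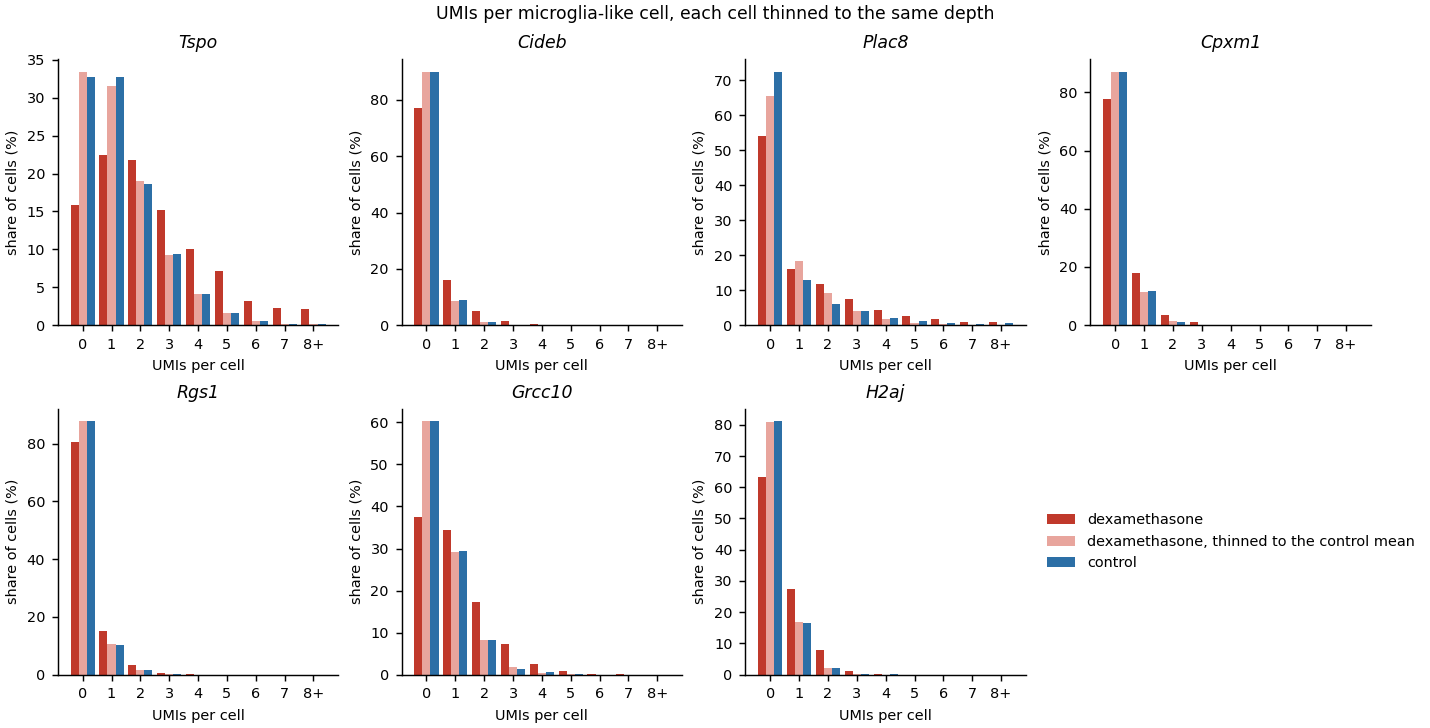
Share of microglia-like cells (%) by number of UMIs per cell, for each gene, with all cells at 4200 UMIs. Red is dexamethasone, pale red is dexamethasone thinned to the control mean, and blue is control. Summed up from 0 UMIs, the pale and blue bars differ by at most 0.71 points for 6 genes, while for Plac8 they stand at 65.6% and 72.4% at 0 UMIs.

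Plac8 was the exception. Its gap was 6.80 points, larger than that of 99.98% of the genes compared. At the same mean, 65.6% of dexamethasone and 72.4% of control cells would carry no Plac8 UMI. The share of cells carrying Plac8 was 1.66 times as high in dexamethasone, while carrying cells averaged 2.57 UMIs in dexamethasone and 2.23 in control, a ratio of 1.15. The ratio of shares was also the larger of the pair for Cideb (2.27 and 1.24), H2aj (1.94 and 1.13), Cpxm1 (1.72 and 1.12), Rgs1 (1.58 and 1.11) and Grcc10 (1.57 and 1.28), so this order does not set Plac8 apart. Only Tspo, the most abundant of the 7, had the other order, with 1.25 for the share and 1.5 for the level in carrying cells. Plac8 counts were also the most uneven over cells, with a variance of 2.64 times the mean in dexamethasone and 2.98 times in control, where equal chances in every cell give 1. The other 6 genes had values of 1.05 to 1.66 in dexamethasone and 1.09 to 1.33 in control. The 10% of cells with most UMIs of a gene held 45.4% of Plac8 UMIs in dexamethasone and 63.9% in control. That share was higher for the scarcer Cideb (60.3% and 99.7%), Rgs1 (63.0% and 84.0%) and Cpxm1 (56.1% and 79.4%).

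Carriers of Plac8 were spread over all 6 clusters in both libraries. Their share was lowest in cluster 1, led by Spp1 and Gpnmb, at 25.6% in dexamethasone and 14.5% in control, and highest in cluster 4, at 68.4% and 40.3%. In cluster 0, led by Tmem119, it was 51.4% and 29.9%. The ratio of the shares was nearly the same everywhere, between 1.52 in cluster 7 and 1.77 in cluster 1.

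Cells with Plac8 also differed from cells without it in other genes, alike in both libraries. This was looked for after the values were seen, among 1234 genes with a mean of at least 0.5 UMIs in carrying or other cells, with each cell at 4200 UMIs. Spp1, which encodes osteopontin and marks axon-tract and lipid-handling microglia in mouse, averaged 0.491 UMIs in Plac8-carrying and 1.71 in other dexamethasone cells. In control cells it averaged 0.334 and 1.17 UMIs, so that the log2 ratio was -1.80 in dexamethasone and -1.81 in control. Cst3, the cysteine protease inhibitor cystatin C, averaged 65.6 UMIs in carrying and 107.1 in other cells in dexamethasone, and 83.4 and 120.9 in control. Lyve1, a hyaluronan receptor, had log2 ratios of -0.70 in dexamethasone and -0.61 in control, and Cd63, a protein of late endosomes, ones of -0.53 and -0.44. Actb was slightly higher in carrying cells, with log2 ratios of 0.16 and 0.15. Each of these held in 12 of 12 combinations of cluster and library.

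Differences of the same kind were found for other members. Cells with Rgs1 carried more Mki67, a proliferation marker, with log2 ratios of 0.62 in dexamethasone and 0.53 in control, in 12 of 12 combinations. Cells with Cpxm1 carried more Cst3, with log2 ratios of 0.35 and 0.30, in 10 of 10 combinations, the opposite of Plac8. For Cideb, ferritin light chain Ftl1 was lower in carrying cells, at -0.25 and -0.24, in 12 of 12.

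**Figure D4:**
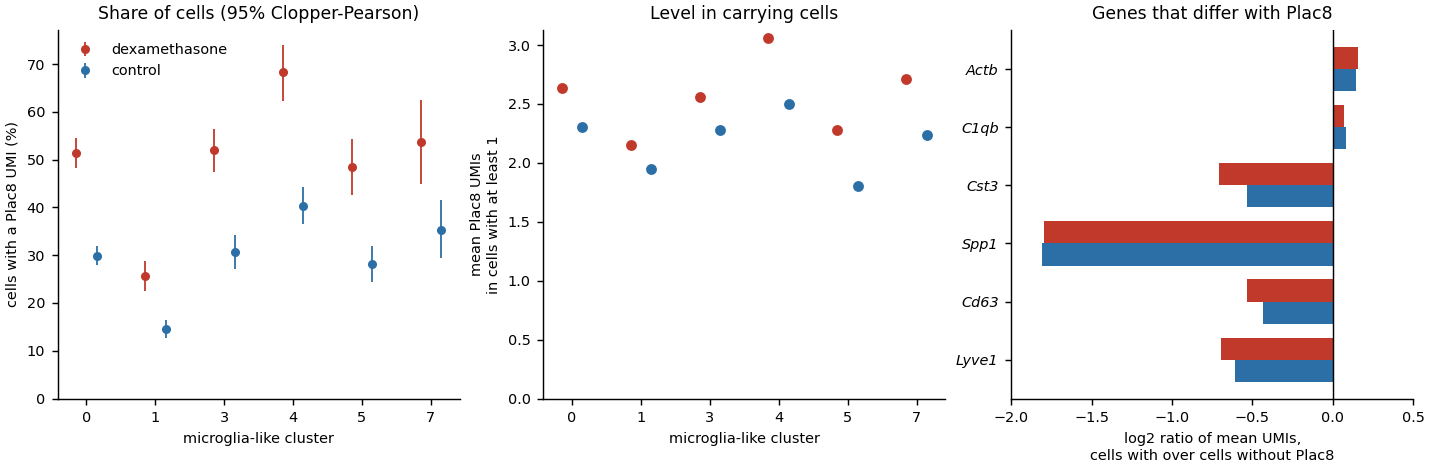
Plac8 in microglia-like cells thinned to 4200 UMIs, dexamethasone in red and control in blue. The panels show the share of cells with a Plac8 UMI by cluster (%), the mean UMIs of cells with at least 1, and the log2 ratio of other genes in cells with over cells without Plac8. Shares differ between the libraries in each cluster, means in carrying cells less, and Spp1 is at -1.80 in dexamethasone and -1.81 in control.

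For most pairs, detection in the same cell was near what independence gives. This comparison shows gathering only weakly. Genes averaging well under 1 UMI are missed in many cells. Tspo was found in 84.1% of dexamethasone cells, so its pairs can rise little above independence. Over the 21 pairs, cells with both genes were 0.99 times the number that independence gives in dexamethasone at the median (0.85 to 1.16) and 0.98 times in control (0.80 to 1.22). Plac8 and Rgs1 were found together more often than independence gives in both libraries, 1.16 times in dexamethasone (1.03 to 1.30) and 1.18 times in control (1.03 to 1.35). Plac8 and Cpxm1 were found together less often, 0.85 times in dexamethasone (0.75 to 0.96) and 0.85 times in control (0.73 to 0.99). Within clusters those values were 1.10 and 1.13 for the first pair and 0.89 and 0.90 for the second. In control, Cideb with H2aj and Cideb with Grcc10 were also below independence. Correlations of thinned counts over cells ran from -0.08 to 0.17 in dexamethasone and from -0.04 to 0.07 in control, highest for Tspo and Plac8 and lowest for Plac8 and Cpxm1 in each library.

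Counted per cell, dexamethasone microglia-like cells carried 2.94 of the 7 genes on average and control cells 1.89. At least 4 were carried by 29.8% of dexamethasone cells (28.2 to 31.5) and by 6.34% of control cells (5.72 to 7.02). None was carried by 27 of 2944 dexamethasone cells, or 0.917%, and by 431 of 5549 control cells, or 7.77%. Independence within each library gives 0.982% and 7.94% for cells with none, close to what was counted. All 7 were carried by 3 of 2944 dexamethasone cells and 0 of 5549 control cells, where the upper Clopper-Pearson bound is 0.0665%.

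**Figure D5:**
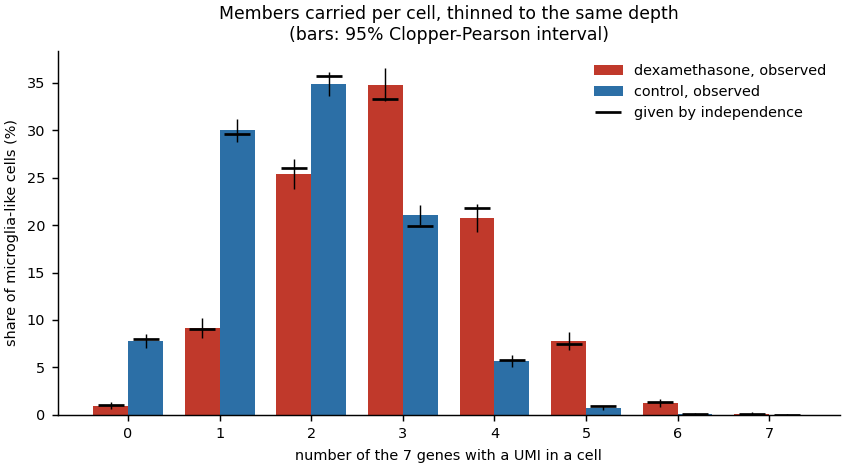
Number of the 7 genes with a UMI per microglia-like cell at 4200 UMIs, as a share of cells (%), dexamethasone in red left of control in blue. Bars are 95% Clopper-Pearson intervals and black ticks the share given by independence within the library. The peak is at 3 genes in dexamethasone and 2 in control, and the ticks follow the bars.

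The other cell classes were not used to pick the genes, but they came from the same 2 libraries. Mitochondrial shares were lower in dexamethasone there too, at 3.31% against 6.27% in macrophage-like, 2.72% against 4.59% in neutrophil-or-monocyte-like and 2.07% against 4.99% in neuron-like cells, and their part was not tested. Border-associated-macrophage-like cells, marked by Mrc1, F13a1 and Ms4a7, numbered 597 in dexamethasone and 885 in control. All 7 genes lay past the line there, as did 6.72% of 10075 genes, and the median log2 ratio was 1.22 against -0.02 over all genes. Plac8 had the highest ratio, with 264 CPM in dexamethasone and 58.9 CPM in control, or 2.16 on the log2 scale (2.01 to 2.32). Cideb stood at 58.8 against 18.3 CPM, Rgs1 at 77.9 against 30.2 CPM, and Tspo at 465 against 199.7 CPM. Grcc10 stood at 281 against 133 CPM and H2aj at 90.1 against 41.7 CPM. Cpxm1 was higher here than in microglia-like cells, at 106.9 CPM in dexamethasone and 75.2 CPM in control, and had the lowest log2 ratio, 0.51 (0.34 to 0.68). That ratio depended on the makeup of the class. Cluster 11, led by Ccl24 and Cd163, held 13 dexamethasone and 151 control cells, and in cluster 2 alone, with 584 and 734 cells, the Cpxm1 ratio was 1.10 (0.89 to 1.31), an alternative added after the data were seen.

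Neutrophil-or-monocyte-like cells numbered 100 in dexamethasone and 138 in control, and genes of antigen presentation such as Cd74 also led their larger cluster. There 4 of 7 genes lay past the line, as did 11.4% of 7516 genes. These cells held by far the most Plac8, at 4296 CPM in dexamethasone (4183 to 4412) and 4215 CPM in control (4111 to 4320), which differ by 0.03 on the log2 scale (-0.03 to 0.08). The class mixes unlike cells: in its larger cluster alone, with 89 dexamethasone and 129 control cells, Plac8 stood at 4767 against 4482 CPM, 0.09 on the log2 scale (0.04 to 0.14). At resolution 1.0 the cells of antigen presentation formed an unnamed cluster of 28 dexamethasone and 77 control cells, apart from clusters of 62 against 53 and of 11 against 9 cells. Tspo was also highest there, at 1949 against 1398 CPM, with a log2 ratio of 0.48 (0.39 to 0.56), which was -0.023 at a finer clustering. H2aj stood at 146.8 against 64.8 CPM, Grcc10 at 219 against 126 CPM, and Cideb at 35 UMIs against 13. Cpxm1 had 11 and 21 UMIs, with a log2 ratio of -0.69 (-1.89 to 0.43). Summed neutrophil and monocyte markers in microglia-like cells were 27.4 CPM in dexamethasone and 19.8 CPM in control, against 276 and 140.3 CPM for Plac8 alone. The part of such RNA in the Plac8 values was not tested.

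Neuron-like cells, 122 in dexamethasone and 513 in control, split the genes. Here 3 of 7 lay past the line, as did 14.4% of 9109 genes. Grcc10 stood at 274 CPM in dexamethasone and 125 CPM in control (log2 ratio 1.13, 0.87 to 1.39), H2aj at 71.7 against 38.8 CPM (0.89, 0.38 to 1.38), and Cideb at 18 UMIs against 13 (2.04, 0.93 to 3.19). The myeloid genes Tspo, Plac8 and Rgs1 had log2 ratios of -0.21, -0.23 and -0.75, and their intervals all included 0. Tspo stood at 101.2 against 117 CPM and Plac8 at 56.4 against 65.9 CPM. Median depth was 5515 UMIs in dexamethasone and 2156 in control neuron-like cells.

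Erythroid-like cells numbered 102 in dexamethasone and 131 in control. Of the 7 genes 4 had at least 20 UMIs there, and all 4 lay past the line, as did 18% of 2767 genes. Plac8 stood at 38.3 against 13.6 CPM, H2aj at 37.3 against 17.0 CPM, Tspo at 64.0 against 43.9 CPM and Grcc10 at 16.6 against 9.96 CPM, where the interval of the ratio included 0. Cluster 8, left unnamed, was led by Mt1, ribosomal protein genes and Grcc10 itself, and held 158 dexamethasone and 169 control cells at a median of 4878 and 1208 UMIs. There 5 of 6 measured genes lay past the line, as did 11.8% of 4487 genes. H2aj stood at 165 against 39.8 CPM and Grcc10 at 449.7 against 225 CPM, while Cideb had 1 UMI in dexamethasone and 0 in control, and no ratio was taken.

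By gene, H2aj had an interval above 0 in 6 of 6 classes compared, Tspo and Grcc10 in 5, and Cpxm1 in 2. These counts include microglia-like cells, on which the genes were picked. For Tspo they also include neutrophil-or-monocyte-like cells, where its ratio fell below 0 at a finer clustering. The share of all genes with an interval above 0 in as many classes was not counted. No interval lay wholly below 0 in any class. The 3 classes with fewer than 50 cells in a library, choroid-or-ependymal-like, lymphoid-or-mast-like and unnamed cluster 16, held 14 dexamethasone and 77 control cells and were not compared. Grcc10 had 16 UMIs in 6 dexamethasone and 19 UMIs in 40 control choroid-or-ependymal-like cells, and Cideb had none in either.

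Lists of genes that work beside each member had medians near 0 in microglia-like cells, and some of their genes lay past the line. A gene of a list needed 20 UMIs to count as measured, and 3.59% is the share past the line among genes with 100. Of 16 measured genes listed as partners of Tspo, such as those of mitochondrial porins and of cholesterol and haem handling, 9 were higher and 7 lower. Their median was 0.01 on the log2 scale, and that of all genes -0.0014. None lay past the line. Vdac1, the mitochondrial porin, stood at 135 against 115 CPM and Acbd3, which binds Tspo, at 92.8 against 103.9 CPM. Of 19 lipid droplet genes that go with Cideb, 7 were higher and 12 lower, at a median of -0.08. Plin2, the coat protein of droplets, had 83.4 against 80.01 CPM, and the interval of its ratio included 0. Past the line were 3 of 19: Soat1, which esterifies cholesterol, at 0.59, and, named after their values were seen, G0s2, an inhibitor of droplet lipolysis, at 2.97 from 58 against 13 UMIs and Cidea at 0.57 (-0.32 to 1.44). Acsl3, which activates fatty acids at droplets, had a ratio of -0.46.

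Of 20 measured RGS and G-protein genes, 11 were higher and 9 lower, at a median of 0.02, and 1 lay past the line, Rgs14 at 0.74. Rgs10, the most abundant, stood at 1353 against 1484 CPM, and Gng10, a gamma subunit, at 955 against 780.5 CPM. Of 8 carboxypeptidase genes 2 were higher and 6 lower, at a median of -0.09, with Aebp1 at 207 against 220.1 CPM. All 5 other H2A variants measured were lower, at a median of -0.14, while H2aj was higher. Of the 5, only 3 had an interval below 0. H2az2 stood at 302.8 against 303.1 CPM, where the interval of the ratio included 0, and H2ax at 85.04 against 93.5 CPM. The share of all genes that were lower was not counted. Of 14 measured monocyte genes that go with Plac8, 6 were higher and 8 lower, at a median of -0.04, and 5 of 14 lay past the line. Napsa, encoding the protease napsin A and named after its value was seen, had the highest ratio, at 16.02 against 2.44 CPM, or 2.71 on the log2 scale. Crip1 at 0.75 and S100a11 at 0.60 were also past it. S100a10 stood at 28.9 against 16.7 CPM and Lgals3, encoding galectin-3, at 27.4 against 16.2 CPM, while the lysozyme gene Lyz2 stood at 243 against 341 CPM.

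Profiles over 24 combinations of cluster and library, which share libraries and cells of 1 capture, placed the members beside different genes among 4719 compared. Tspo was most like Bcl2a1 (Pearson r 0.95), Ncf4 and Cebpb, genes of myeloid cells, and Plac8 most like Rassf5 (0.92), Fgr and Rgs3. Grcc10 was most like the ribosomal protein genes Rps21 (0.97), Rpl30 and Rps10, and H2aj most like Rps19l2 (0.85), Ppial4d and Rpl37. Rps21 had a log2 ratio of 0.69 in microglia-like cells and Rps10 one of 0.71. Cideb was most like Hiatl3 (0.85), RT1-A2 and Dipk2a, Rgs1 most like RT1-A2 (0.91), Pla2g4a and Jam2, and Cpxm1 most like Rgl1 (0.86), Eef2k and Dennd2c. Once the mean of each library was removed, Grcc10 was most like Rab11a (0.98) and H2aj most like Psme2 (0.89), and no ribosomal protein gene was among their nearest 3. Among the members themselves r ran from -0.04 for Plac8 and Cpxm1 to 0.90 for Tspo and Plac8. The profiles span unlike cell classes. Neutrophil-or-monocyte-like cluster 10 stood far above the microglia-like clusters for Tspo, at 1794 and 1330 CPM, and for Plac8, at 4767 and 4482 CPM, dexamethasone first. Over thinned microglia-like cells the correlation of this pair was 0.17 in dexamethasone and 0.07 in control.

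Genomic neighbours were read from gene order in GRCr8. Of the 42 protein-coding genes that stand up to 3 places from a member, 22 were measured in microglia-like cells. Their median log2 ratio was 0.16, against -0.0014 over all 10531 genes measured. Higher in dexamethasone were 17 of the 22, and the share of all genes that were higher was not counted. Past the line was 1 of the 22, as were 3.59% of all genes. It was Plbd1, a phospholipase-like gene 2 places from H2aj, at 12.9 against 8.15 CPM. Ptpn6, next to Grcc10, stood at 290 against 304 CPM. Rgs2 and Rgs18, beside Rgs1 on chromosome 13, had log2 ratios of 0.14 and 0.15.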

How the data were processed

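Droplet single-cell RNA-seq of sorted microglia was analysed in 2 libraries, dexamethasone and control. The authors deposited raw UMI counts per gene and barcode, made with Cell Ranger 7.0.0 against Rnor_6.0 per the submitters' processing notes. The annotation release and the read-assignment settings are not given in the sources used here. Gene IDs, symbols and barcodes are the deposited lists that go with the count matrices. The members, the gene lists, the markers and the bins were chosen with earlier results of these data known.

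Barcodes under 200 genes or over 20% mitochondrial UMIs were left out. Scrublet per library marked 1 of 4199 dexamethasone barcodes, since removed, against 0 of 8044 in control. The caller has not worked, and doublets remain. Cells were clustered in scanpy 1.11.5 with leidenalg 0.10.2 (2000 variable genes without the members, 30 components, 15 neighbours, resolution 0.5, no integration). Clusters were named from fixed markers: 2 or more of another class in the top 25 genes, outnumbering microglial ones, gave that class. The rest were microglia-like if 10 or more microglial markers stood at 0.6 or more of their median over those clusters. Classes built this way may differ from the study's own.

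UMIs were summed per class and library and scaled to CPM. Ratios have exact conditional binomial intervals, CPM exact Poisson and shares exact Clopper-Pearson intervals, all at 95% and for counting error only. A library at 0 stood at 3 counts, and no ratio was taken when both were at or under 3. Genes of the background had at least 100 UMIs in microglia-like cells and 20 in other classes. Thinning drew 4200 UMIs per cell without replacement, the 10th percentile of the control rounded down to 100. Named genes were the members, the 3 most alike profiles (log2 of CPM + 10) per member, the 2 most abundant and the 2 of largest ratio (at least 20 CPM) per list, neighbours, and genes chosen after their values were seen where the text says so. The procedures were tested on simulated data. Alternatives covered filters, clustering, scaling, cell weighting and thinning.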

Additional observations from a re-analysis of the deposited data

How the results depend on the processing

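In microglia-like cells the median log2 ratio of the 7 genes, 0.98, was above 0 under 40 of 40 alternatives, with a range of 0.70 to 1.09, and 7 of 7 genes stayed past 0.5 in all but 3 of them, which are the marker gate and the mitochondrial share bins of 2% to 3% and of 8% or more. The per-cell marker gate kept 308 dexamethasone and 458 control cells, at a median of 5833 and 4627 UMIs, and gave a median of 0.70 with 4 of 7 genes past 0.5. Plac8 was then at 0.47, Rgs1 at 0.43 and Cpxm1 at 0.36 (-0.11 to 0.84), and the cause was not tested. The median was 0.90 in cluster 1 alone, 1.09 in cluster 7 alone and 1.04 without the 5% of cells with most UMIs of each gene. In bins of the mitochondrial share, added after the data were seen, Rgs1 was at 0.12 (-0.29 to 0.56) at 2% to 3%. The median was 0.86, 0.93, 0.92, 0.91, 0.83 and 0.79 where it left its interval, and H2aj was at -0.058 in the highest bin, with 6 dexamethasone UMIs. In the 3 lowest bins of the ribosomal protein share the median was 0.83, 0.79 and 0.91. In border-associated-macrophage-like cells the median of 1.22 was 1.11 under the stricter cell filter and 1.12 at resolution 1.0. In erythroid-like cells the median of 0.94 was 2.15 under the stricter filter, which left 20 dexamethasone and 66 control cells, under the minimum of 50 per library. Tspo in neutrophil-or-monocyte-like cells was at -0.023 at resolution 1.0. Totals without mitochondrially encoded or ribosomal protein genes shifted the median of all genes by under 0.1 in each class. Shares of cells with a UMI were higher in dexamethasone for 7 of 7 genes at 2000 UMIs and without thinning. No paired analysis was possible because each group has 1 library. Counting error limits Cideb, Cpxm1 and Rgs1 outside the macrophage classes, where they had few UMIs, and 1 library per group leaves the spread between animals unknown.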
